A study of Homo sapiens with 12 samples.

Results

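Chemokines are small secreted proteins that steer white blood cells, and 10 of their genes were followed across 12 RNA libraries of pancreatic cancer cells. They were taken by gene symbol: CXCL1, CXCL2, CXCL3, CXCL5 and CXCL8, which draw neutrophils, CXCL10, CXCL11 and CXCL16, which draw T cells, and the CC chemokines CCL2 and CCL20. The transcript rows of all 10 were found, among 39099 genes that could be summed from the table, and all 10 were among the 14767 genes tested. The cells were of the established pancreatic cancer lines AsPC-1 and PANC-1. Each line was given a mock control, overexpression (O/E) of TAp63 or overexpression of deltaNp63, with 2 biological replicates in each of the 6 groups. TAp63 and deltaNp63 are made from the distal and the intragenic promoter of TP63, a transcription factor of the p53 family; the first carries an N-terminal activation domain that the second lacks. The vector, its promoter, the time after delivery and whether clones or pools were used are not given in the sources used here. The title of the study ties TAp63 to the squamous subtype and to a suppressive immune environment, so the question for these genes was whether either construct moved the chemokine output of the tumour cells.

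Neutrophil-attracting CXC chemokines carry a glutamate-leucine-arginine motif and act through the receptors CXCR1 and CXCR2. CXCL10 and CXCL11 are made in response to interferon and act through CXCR3 on activated T cells, and CXCL16 is a membrane-bound chemokine that is also a scavenger receptor and acts through CXCR6. CCL2 draws monocytes through CCR2, and CCL20 draws dendritic cells and lymphocytes through CCR6. In epithelial tumour cells many of these genes are switched on by NF-kB after signals such as IL-1 and TNF, and the CXCR3 ligands also by interferon signalling.

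Values are TPM, a relative abundance of transcripts, summed over the transcripts of a gene. TPM corrects for transcript length, so levels of different genes can be set side by side, but it keeps no read count, and the depth of each library is unknown. The libraries held from 12212 to 13161 genes at 1 TPM or more. The overexpressed gene, TP63, was at 1.10 and 0.817 TPM in the AsPC-1 mock libraries, 102 and 170 TPM with TAp63 and 245 and 350 TPM with deltaNp63. In PANC-1 it was at 0.119 and 0.0245 TPM with mock, 324 and 342 TPM with TAp63 and 815 and 1187 TPM with deltaNp63. Each construct was thus present, and more TP63 RNA was present with deltaNp63 than with TAp63 in both lines, so isoform and amount cannot be told apart. All 7 ductal carcinoma markers, keratins, EPCAM, CDH1 and MUC1, were at 1 TPM or more in both lines. Of 11 leukocyte markers, 1 reached a mean of 1 TPM over the libraries, LYZ in AsPC-1, and the defining leukocyte gene PTPRC was near 0. Of the 7 fibroblast markers 2 reached that mean, LUM in AsPC-1 and COL1A1 in PANC-1. LYZ and LUM were far above 1 TPM in AsPC-1. In its mock libraries the leukocyte list summed to 111 and 131 TPM and the fibroblast list to 185 and 226 TPM. Each list had 1 gene with a mean of 1 TPM or more there.

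The 10 genes lie on 3 chromosomes (GENCODE v44, hg38). Chromosome 4 holds all but CXCL16, CCL2 and CCL20. CXCL8 (ENSG00000169429, 73740519 to 73743716) and CXCL1 (ENSG00000163739, 73869393 to 73871308) are on its plus strand. CXCL5 (ENSG00000163735, 73995642 to 73998677), CXCL3 (ENSG00000163734, 74036589 to 74038807) and CXCL2 (ENSG00000081041, 74097040 to 74099196) follow on the minus strand. CXCL10 (ENSG00000169245, 76021118 to 76023497) and CXCL11 (ENSG00000169248, 76033682 to 76041415) stand further along on the minus strand, and both overlap ART3 on the other strand. CXCL5 overlaps ENSG00000287037, and CXCL16 overlaps MED11 and ZMYND15, also on the other strand. The library kit keeps strand, but whether the quantification used it is not given in the sources used here. CXCL11 overlaps RPL36P8 too, on its own strand. CXCL16 (ENSG00000161921, 4733533 to 4739928, minus strand) and CCL2 (ENSG00000108691, 34255274 to 34257208, plus strand) are on chromosome 17, and CCL20 (ENSG00000115009, 227805739 to 227817564, plus strand) is on chromosome 2. CXCL1, CXCL2 and CXCL3 are close copies: 15.0%, 19.2% and 9.57% of their 31-base words also occur in transcripts of another gene, so part of the value of each could belong to its neighbours. That share was 4.61% for CXCL5 and 4.99% for CXCL16. For CXCL8, CXCL10, CXCL11, CCL2 and CCL20 it was 0%.

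The promoters show what the members share in sequence. RefSeq (GRCh38.p14) gave a promoter for 8 of the 10, all but CXCL16 and CCL2. Below are 6 of them, 5′ to 3′ on the gene's strand and ending at the base before the RefSeq start: CXCL1 (chr4:73869273-73869392), CXCL2 (chr4:74099196-74099315), CXCL3 (chr4:74038690-74038809), CXCL8 (chr4:73740449-73740568) and CCL20 (chr2:227813722-227813841) over 120 bases, and CXCL10 (chr4:76023498-76023747) over 250 bases. The first trio is shown because these genes differ little in promoter and much in expression, CXCL8 and CCL20 for their TATA box, and CXCL10 for its interferon-type element. Capitals mark matches to the NF-kB consensus, GGAATTTCC, TATAAA and, in CXCL10, the interferon-stimulated response element pattern, whose match there is GAAAGTGAAA.
CXCL1: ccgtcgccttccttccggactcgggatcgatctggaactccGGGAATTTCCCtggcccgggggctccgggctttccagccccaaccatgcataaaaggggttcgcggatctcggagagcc
CXCL2: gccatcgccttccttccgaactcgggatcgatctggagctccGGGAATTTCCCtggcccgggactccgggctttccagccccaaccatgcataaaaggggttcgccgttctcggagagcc
CXCL3: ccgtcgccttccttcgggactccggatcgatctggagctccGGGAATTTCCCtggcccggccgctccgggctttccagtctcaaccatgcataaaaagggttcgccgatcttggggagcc
CXCL8: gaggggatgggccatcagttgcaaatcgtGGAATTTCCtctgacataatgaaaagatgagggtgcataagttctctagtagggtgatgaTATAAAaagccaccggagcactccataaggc
CXCL10: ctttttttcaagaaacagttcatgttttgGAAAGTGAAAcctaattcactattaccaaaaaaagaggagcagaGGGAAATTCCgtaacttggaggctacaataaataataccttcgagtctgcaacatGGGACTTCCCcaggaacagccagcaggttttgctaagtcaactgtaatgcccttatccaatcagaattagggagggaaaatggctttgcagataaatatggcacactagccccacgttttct
CCL20: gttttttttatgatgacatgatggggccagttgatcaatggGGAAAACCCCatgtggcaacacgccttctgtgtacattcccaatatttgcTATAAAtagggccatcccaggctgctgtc
For CXCL2, CXCL3, CXCL8 and CCL20 GENCODE places the gene's first base upstream of the RefSeq start, so part or all of the window lies inside the GENCODE gene.

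Motifs were searched in the 250 bases before 35116 RefSeq promoter starts, on both strands except TATAAA, which was searched on the gene's strand. The NF-kB consensus was found in 7 of the 8 members, all but CXCL8, and in 9.96% of all promoters. The stricter word GGAATTTCC, which overlaps that consensus, was found in 7 of the 8, all but CCL20, and in 0.413% of all promoters. In CXCL1 and CXCL3 the match GGGAATTTCC ran from 79 to 70 bases before the start, counted with -1 as the base next to it (-79 to -70), and in CXCL2 from -78 to -69. CXCL8 had GGAATTTCC at -91 to -83, and CCL20 matched on the minus strand, its plus strand reading GGAAAACCCC at -79 to -70. CXCL10 alone of the 8 held the interferon-stimulated response element pattern, as GAAAGTGAAA at -221 to -212, beside a pair of NF-kB matches starting at -177 and -122. That pattern was in 3.02% of all promoters. TATAAA was in CXCL8 at -31, CXCL11 at -42 and CCL20 at -29, against 6.80% of all promoters. A p53-family half-site was matched in 0 of the 8 windows and in 5.57% of all promoters, which says only that those letters are not in these 250 bases. Over 120 bases, the CXCL1 window differed from that of CXCL2 by 8 edits and from that of CXCL3 by 11, and from that of CXCL8 by 71.

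In mock AsPC-1 cells the chemokine output was led by CCL20, and in mock PANC-1 cells by CCL2. CCL20 was at 161 and 180 TPM in the AsPC-1 mock libraries, followed by CXCL2 at 70.3 and 76.8 TPM and CXCL16 at 60.7 and 65.3 TPM, none of these 3 overlapping the next in order. CXCL3 (30.0 and 33.5 TPM) and CXCL8 (32.2 and 30.6 TPM) came next and overlapped each other. CXCL1 was at 15.9 and 13.7 TPM and CXCL5 at 13.3 and 11.8 TPM. The interferon-inducible pair were lowest of those present, CXCL10 at 1.98 and 2.26 TPM and CXCL11 at 1.83 and 1.43 TPM. CCL2 was listed at 0 in all 6 AsPC-1 libraries.

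The order was another one in PANC-1. CCL2 was at 115 and 138 TPM in the PANC-1 mock libraries, far above the next, CXCL8 at 10.3 and 12.7 TPM, CXCL1 at 10.03 and 11.6 TPM and CXCL16 at 8.59 and 9.95 TPM. CXCL8 and CXCL1 overlapped each other. CCL20 was at 3.91 and 4.98 TPM, CXCL11 at 3.16 and 2.79 TPM and CXCL10 at 2.26 and 1.18 TPM. CXCL2 (1.27 and 0.688 TPM) and CXCL3 (0.379 and 1.48 TPM) were close to 1 TPM, where CXCL10, CXCL2 and CXCL3 could not be put in order, and CXCL5 was at 0.196 and 0.169 TPM. Of the summed TPM of the 10 members, CCL2 held 74.2% and 75.2% in the PANC-1 mock libraries, and CCL20 held 41.5% and 43.3% in those of AsPC-1.

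**Figure D1:**
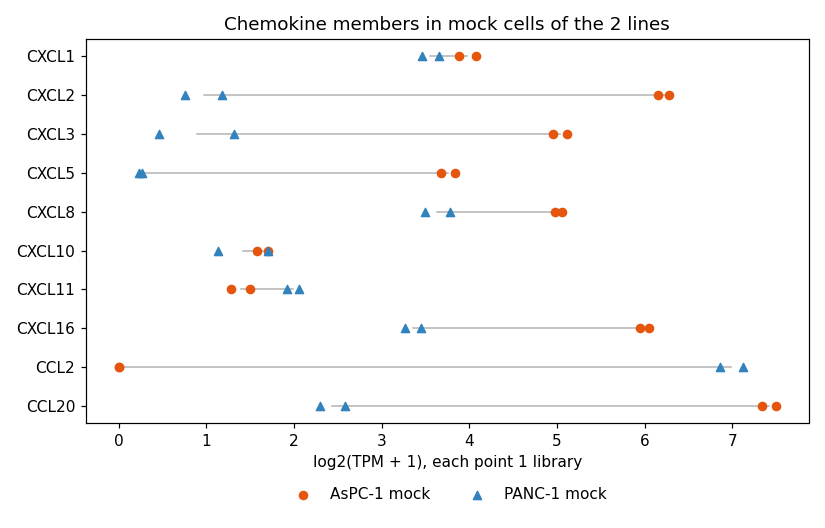
Levels of the 10 chemokine genes in mock cells, as log2(TPM + 1), where each point is 1 library and a grey line joins the means of AsPC-1 (circles) and PANC-1 (triangles). CXCL2, CXCL3, CXCL5 and CCL20 lie far to the right in AsPC-1 and CCL2 far to the right in PANC-1, while CXCL1 and CXCL10 lie close together.

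Mock cells of the lines were compared gene by gene on the log2(TPM + 1) scale with limma, which understates changes of genes near 0. All 5 neutrophil-attracting genes were lower in PANC-1 than in AsPC-1, and their median log2 fold change was -3.52, against 0.24 for all genes tested. The size ran from small to very large. Mock means were 75.2 times higher in AsPC-1 for CXCL2, 68.6 times for CXCL5, 34.2 times for CXCL3, 2.74 times for CXCL8 and 1.37 times for CXCL1. On the log2 scale these were -5.25 for CXCL2 (SE 0.165, limma adjusted p 1.31e-09), -4.15 for CXCL3, -3.52 for CXCL5, -1.38 for CXCL8 (SE 0.216, limma adjusted p 0.000213) and -0.42 for CXCL1 (SE 0.132, limma adjusted p 0.0153). CXCL1 and CXCL2, whose promoter windows above differ by 8 edits, therefore stood at opposite ends of this range. The CXCL1 difference did not pass without replicate 1 of the AsPC-1 mock (limma adjusted p 0.105) or without replicate 1 of the PANC-1 mock (limma adjusted p 0.11).

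The other members were divided between the lines. CCL20 was 38.3 times higher in AsPC-1 (log2 fold change -4.98, limma adjusted p 1.39e-09) and CXCL16 was 6.80 times higher there (-2.64, limma adjusted p 5.59e-08). CCL2 passed as higher in PANC-1, with no fold given because AsPC-1 was listed at 0. CXCL11 was 1.83 times higher in PANC-1 (0.60, SE 0.204, limma adjusted p 0.0224), a call lost under median centring (0.43, limma adjusted p 0.0901), quantile normalization (0.29, limma adjusted p 0.224) and some other settings. For CXCL10 the 95% interval of the log2 difference ran from -0.71 to 0.26 (limma adjusted p 0.367). In all, 9 of the 10 members passed, 2 higher and 7 lower in PANC-1, in a comparison where 72.5% of all genes passed, 44.6% higher and 27.9% lower. Calls were thus the rule in this comparison, and the size of a difference says more than its passing.

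Against mock, neither construct gave a chemokine call in AsPC-1; both comparisons use the same mock libraries. In bulk RNA, fewer cells making a chemokine and less of its RNA per cell cannot be told apart. With TAp63, 0 of the 9 members that could be tested passed by limma (CCL2 was at 0), in a comparison where 0.637% of all genes passed. With deltaNp63, 0 of 9 passed, where 7.14% of all genes did. At an unadjusted p under 0.05 there were 2 of the 9 members with each construct, against 15.1% of all genes with TAp63 and 29.7% with deltaNp63. The share of members was little above its background with TAp63 and below it with deltaNp63. Of the 9 members, 6 estimates were below 0 with each construct. Over all 14767 genes tested, 9685 were below 0 with TAp63 and 9909 with deltaNp63, a similar share. The median of the members was -0.22 with TAp63 and -0.26 with deltaNp63, beside -0.08 and -0.12 for all genes tested.

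CXCL10 had the lowest estimates of the 9. It was at 1.98 and 2.26 TPM with mock, 0.566 and 0.995 TPM with TAp63 and 0.864 and 0.796 TPM with deltaNp63. All 4 construct libraries lay below both mock libraries, and the constructs overlapped each other. The log2 fold change was -0.82 with TAp63 (SE 0.215, 95% interval -1.30 to -0.34, limma adjusted p 0.137) and -0.77 with deltaNp63 (SE 0.215, 95% interval -1.25 to -0.29, limma adjusted p 0.0579). Over all settings tried the limma adjusted p for deltaNp63 ran from 0.0579 to 0.349. A level near 1 TPM is low, and the fold on this scale is damped by the pseudocount of 1.

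The other T-cell-attracting genes were also lower on average with the constructs, without passing. CXCL16 went from 60.7 and 65.3 TPM with mock to 51.4 and 53.04 TPM with TAp63 and 44.9 and 50.9 TPM with deltaNp63, and all 3 groups kept apart. Its log2 fold change was -0.27 with TAp63 (95% interval -0.57 to 0.04, limma adjusted p 0.397) and -0.39 with deltaNp63 (95% interval -0.70 to -0.08, limma adjusted p 0.0958). CXCL11 was at 1.83 and 1.43 TPM with mock, 0.561 and 1.27 TPM with TAp63 and 1.44 and 0.973 TPM with deltaNp63. The TAp63 libraries lay below mock and the deltaNp63 libraries overlapped it (log2 fold changes -0.48 and -0.26, limma adjusted p 0.31 and 0.448). Centring each library on its median brought the deltaNp63 values closer to 0, to -0.56 for CXCL10 and -0.18 for CXCL16.

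The neutrophil-attracting genes did not move as a block in AsPC-1. CXCL2 was at 70.3 and 76.8 TPM with mock, 85.0 and 86.3 TPM with TAp63 and 73.7 and 86.1 TPM with deltaNp63. CXCL3 was at 30.0 and 33.5 TPM with mock, 36.7 and 39.6 TPM with TAp63 and 34.5 and 38.02 TPM with deltaNp63. Both genes were above mock in each TAp63 library (log2 fold changes 0.22 and 0.26, limma adjusted p 0.583 and 0.683). CXCL8, the ligand of both neutrophil receptors, was at 32.2 and 30.6 TPM with mock, 43.2 and 31.6 TPM with TAp63 and 54.6 and 35.7 TPM with deltaNp63. Its deltaNp63 libraries lay above mock but far from each other, and the estimate of 0.48 had a 95% interval from -0.0032 to 0.96 (limma adjusted p 0.171). Without replicate 2 of deltaNp63, the lower one, CXCL8 was at 0.78 and passed (limma adjusted p 0.025), in a fit where the lone library is assumed to vary like the other groups.

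CXCL1, CXCL5 and CCL20 were lower on average with the constructs. CXCL1 was at 15.9 and 13.7 TPM with mock, 14.5 and 12.6 TPM with TAp63 and 10.9 and 13.3 TPM with deltaNp63. CXCL5, another CXCR2 ligand, was at 13.3 and 11.8 TPM with mock, 10.7 and 8.35 TPM with TAp63 and 13.1 and 9.36 TPM with deltaNp63. The CXCL1 libraries with deltaNp63 and the CXCL5 libraries with TAp63 all lay below mock, and the other comparison of each gene overlapped. No estimate passed: the intervals were -0.57 to 0.02 for CXCL1 with deltaNp63 and -0.76 to 0.02 for CXCL5 with TAp63, and the CXCL1 estimate with TAp63 and the CXCL5 estimate with deltaNp63 turned to above 0 under quantile normalization and median centring. With deltaNp63, median centring put CXCL2, CXCL3 and CXCL8 at 0.32, 0.39 and 0.69, CXCL5 at 0.04 and CXCL1 at -0.06, none passing. With TAp63 it left CXCL5 at -0.24. CCL20, the most abundant member, was at 161 and 180 TPM with mock, 153 and 139 TPM with TAp63 and 151 and 134 TPM with deltaNp63. Its construct libraries all lay below mock (-0.22 and -0.26, limma adjusted p 0.557 and 0.314).

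Counted by separation alone, 2 members were above mock in both TAp63 libraries (CXCL2 and CXCL3) and 5 were below (CXCL5, CXCL10, CXCL11, CXCL16 and CCL20), where 11.2% and 35.4% of all genes did so. With deltaNp63, 2 were above (CXCL3 and CXCL8) and 4 below (CXCL1, CXCL10, CXCL16 and CCL20), against 11.1% and 41.1% of all genes. Directly compared, TAp63 and deltaNp63 in AsPC-1 gave 0 of 9 members by limma, where 0.0203% of all genes passed, and 0 at an unadjusted p under 0.05, where 7.92% did. CXCL16 was the 1 member higher in both TAp63 libraries, where 19.6% of all genes were, and 0 were lower in both, where 9.87% were. The estimates ran from -0.25 for CXCL8 to 0.15 for CXCL1, and the widest interval was that of CXCL3, -0.48 to 0.62.

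**Figure D2:**
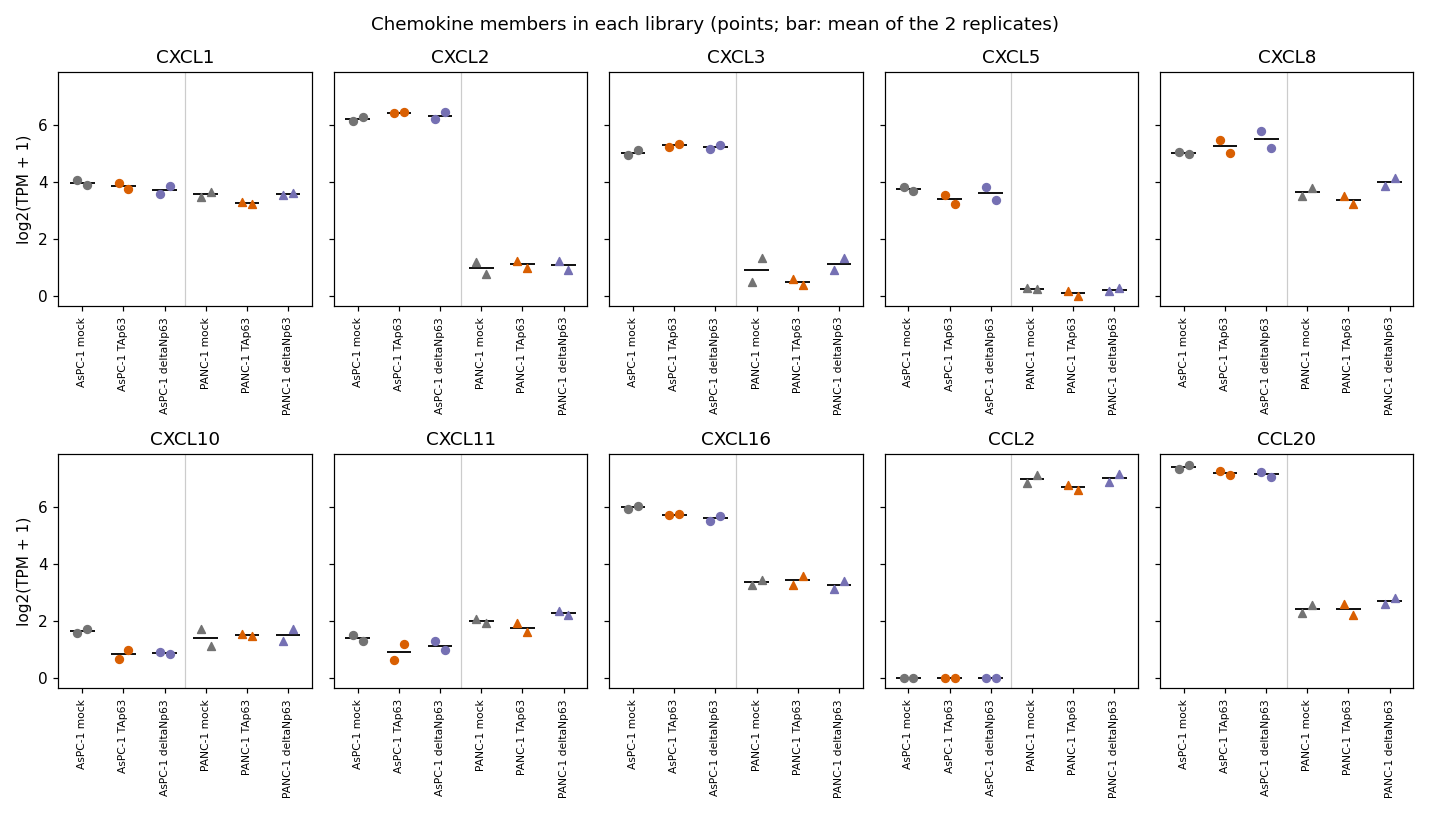
The 10 chemokine genes in each of the 12 libraries, 1 panel a gene, as log2(TPM + 1) by group, where points are libraries (circles AsPC-1, triangles PANC-1) and bars are means of the 2 replicates. The lines stand far apart for CXCL2, CXCL3, CXCL5, CXCL16, CCL2 and CCL20, and among the construct means that of CXCL10 in AsPC-1 lies farthest from mock.

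In PANC-1 the constructs gave no chemokine call either. With TAp63, 0 of 10 members passed by limma, where 1 gene of all those tested did (0.00677%), the overexpressed TP63 itself. With deltaNp63 0 of 10 passed, where 0.0406% of all genes did. At an unadjusted p under 0.05 there were 2 members with TAp63, against 3.41% of all genes, and 0 with deltaNp63, against 2.34%. CCL2, the main chemokine of this line, was at 115 and 138 TPM with mock, 110 and 95.9 TPM with TAp63 and 118 and 143 TPM with deltaNp63. Its TAp63 libraries lay below mock (-0.29, 95% interval -0.58 to -0.0042, limma adjusted p 1), and its deltaNp63 libraries overlapped mock (0.04, 95% interval -0.25 to 0.33). CXCL1 was at 10.03 and 11.6 TPM with mock, 8.83 and 8.28 TPM with TAp63 and 10.5 and 11.3 TPM with deltaNp63. It too was below mock in both TAp63 libraries (-0.30, 95% interval -0.60 to -0.0061, limma adjusted p 1).

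CXCL8 in PANC-1 was at 10.3 and 12.7 TPM with mock, 10.3 and 8.30 TPM with TAp63 and 13.6 and 16.7 TPM with deltaNp63. Its deltaNp63 libraries lay above the rest (0.38, 95% interval -0.11 to 0.86, limma adjusted p 1). CXCL11 was at 3.16 and 2.79 TPM with mock, 2.84 and 2.04 TPM with TAp63 and 4.11 and 3.63 TPM with deltaNp63. CCL20 was at 3.91 and 4.98 TPM with mock, 5.12 and 3.59 TPM with TAp63 and 5.07 and 6.06 TPM with deltaNp63. These 3 genes were the members above mock in both deltaNp63 libraries, where 10.8% of all genes were, and 0 members were below in both, where 16.3% were. With TAp63, 3 members lay below mock in both libraries (CXCL1, CXCL5 and CCL2), where 20.4% of all genes did, and 0 above, where 22% did.

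CXCL10 and CXCL16, the genes with the lowest estimates in AsPC-1 with deltaNp63, overlapped mock with both constructs in PANC-1. CXCL10 was at 2.26 and 1.18 TPM with mock, 1.95 and 1.75 TPM with TAp63 and 1.44 and 2.27 TPM with deltaNp63. CXCL16 was at 8.59 and 9.95 TPM, 8.73 and 11.0 TPM and 7.80 and 9.71 TPM in the same order. In both genes the 3 groups overlapped. CXCL2 (0.688 to 1.35 TPM), CXCL3 (0.296 to 1.53 TPM) and CXCL5 (0 to 0.201 TPM) were too low in this line to show a change of ordinary size: the interval for CXCL3 with TAp63 was -0.96 to 0.14.

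TAp63 and deltaNp63 were then set against each other in PANC-1. By limma 0 of 10 members passed, where 0.0271% of all genes did, and every member's adjusted p was 1. At an unadjusted p under 0.05 there were 5 members, all lower with TAp63, where 2.96% of all genes passed that mark and 1.31% were lower. They were CXCL8 (-0.65, 95% interval -1.13 to -0.17), CXCL3 (-0.64, -1.19 to -0.09), CXCL11 (-0.51, -0.97 to -0.05), CCL2 (-0.33, -0.62 to -0.04) and CXCL1 (-0.32, -0.62 to -0.03). In each of the 5 both TAp63 libraries lay below both deltaNp63 libraries, against 13.8% of all genes, and 0 members lay the other way round, against 20.2%. CXCL3 was low throughout, at 0.489 and 0.296 TPM with TAp63 and 0.848 and 1.53 TPM with deltaNp63. Its mock libraries alone were at 0.379 and 1.48 TPM. The median of the 10 members was -0.31, against 0.02 for all genes. The count rested on single libraries: it was 0 without replicate 2 of TAp63, 0 without replicate 2 of deltaNp63 and 3 without replicate 1 of deltaNp63. It was also 3 with a pseudocount of 0.1, with transcript rows and with a model of the 6 PANC-1 libraries alone.

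**Figure D3:**
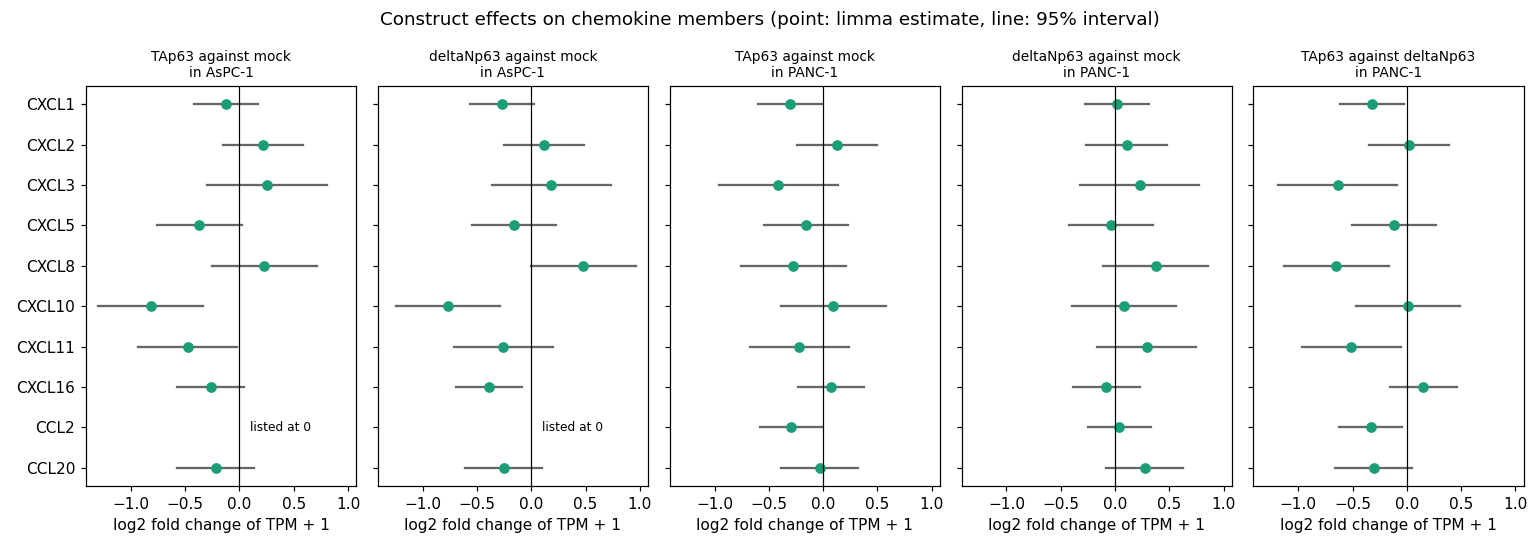
Log2 fold changes of TPM + 1 for the 10 chemokine genes in 5 comparisons, where points are limma estimates and lines are 95% intervals. Of the intervals in AsPC-1, those of CXCL10 lie wholly below 0 with both constructs, and in the panel of TAp63 against deltaNp63 in PANC-1 those of CXCL1, CXCL3, CXCL8, CXCL11 and CCL2 do.

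Whether the lines answered differently was tested as an interaction, PANC-1 minus AsPC-1. By limma 0 of 9 members passed for TAp63, where 0.0745% of all genes did, and 0 of 9 for deltaNp63, where 0.582% did. CXCL10 came nearest for TAp63, at 0.91 (95% interval 0.23 to 1.59, limma adjusted p 0.404), and at 0.85 for deltaNp63 (limma adjusted p 0.244). CCL20 was at 0.53 for deltaNp63 (limma adjusted p 0.283). The intervals leave room for moderate differences in most members: that of CXCL3 for TAp63 ran from -1.45 to 0.11 and that of CXCL8 from -1.19 to 0.18.

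The genes that drive chemokine transcription were then examined through lists of interferon signalling, NF-kB, cytokine inputs (IL-1, TNF, IL-17 and Toll-like receptors) and the processing and decay of chemokine proteins and RNAs. Several interferon signalling genes fell in AsPC-1. USP18, an interferon-induced brake on the receptor, had a mean of 60.5 ± 0.985 TPM in mock cells and fell to 27.2 ± 4.16 with TAp63 and to 17.9 ± 3.12 with deltaNp63 (SD, n = 2). On the log2 scale this was -1.13 for TAp63 (SE 0.131, limma adjusted p 0.00376) and -1.71 for deltaNp63 (limma adjusted p 0.000135). STAT2, a transcription factor of the type I interferon response, had a mean of 23.9 ± 1.02 TPM in mock cells, 13.1 ± 0.396 with TAp63 and 12.02 ± 0.586 with deltaNp63 (SD, n = 2), falls of -0.83 (limma adjusted p 0.00377) and -0.94 (limma adjusted p 0.000842). IRF1, an interferon-induced transcription factor, fell with deltaNp63, from 138 ± 17.2 to 80.1 ± 5.22 TPM (SD, n = 2; -0.77, limma adjusted p 0.00925), and was at 100.5 ± 10.4 TPM with TAp63 (-0.45, limma adjusted p 0.13). With TAp63, 2 of 19 interferon genes fell, USP18 and STAT2, and 0 rose, where 0.609% of all genes fell. With deltaNp63, 5 of 19 fell and 0 rose, where 6.51% of all genes fell. The list median was -0.20 with TAp63 and -0.27 with deltaNp63.

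In PANC-1, 0 of the 19 passed with either construct, where 0.00677% of all genes did with TAp63 and 0.0406% with deltaNp63. USP18 had means of 113 ± 4.83 TPM (mock), 112 ± 6.11 TPM (TAp63) and 118 ± 8.20 TPM (deltaNp63), and STAT2 of 55.3 ± 4.76, 54.7 ± 2.94 and 55.5 ± 3.63 TPM (SD, n = 2). IRF1 was at 120.2 ± 0.184, 145 ± 7.87 and 149 ± 15.1 TPM in the same order. The interaction passed for deltaNp63 in 3 of the 19 interferon genes, where 0.582% of all genes passed in either direction, all higher in PANC-1: USP18 (1.78, limma adjusted p 0.00246), STAT2 (0.94, limma adjusted p 0.0141) and IRF1 (1.07, limma adjusted p 0.017). The USP18 call held under every alternative run. That of STAT2 was lost when only the compared groups were fitted (limma adjusted p 0.0738), on transcript rows (0.2004) and without either AsPC-1 mock replicate or replicate 2 of the PANC-1 mock or deltaNp63 (0.0526 to 0.0925). That of IRF1 was lost without the low-value filter (limma adjusted p 0.052), when only the compared groups were fitted (0.0626), on transcript rows (0.145) and without replicate 2 of the AsPC-1 mock, replicate 1 of AsPC-1 deltaNp63, either PANC-1 mock replicate or replicate 2 of PANC-1 deltaNp63 (0.0588 to 0.103). CXCL10 has the interferon-type element printed above, its own interaction estimates did not pass, and whether these genes had a part in its level was not tested. The AsPC-1 calls of USP18, STAT2 and IRF1 need the shared estimate of spread: fitted on the compared groups alone they kept their folds, with limma adjusted p from 0.263 to 0.363. On transcript rows the TAp63 call of STAT2 (limma adjusted p 0.0696) and the deltaNp63 call of IRF1 (0.105) were lost. The deltaNp63 call of IRF1 was also lost without replicate 2 of the mock (limma adjusted p 0.0668) and without replicate 1 of deltaNp63 (limma adjusted p 0.0633).

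Few genes passed in the lists of NF-kB and its inputs. Over all genes, 0.609% were called lower with TAp63 and 6.51% with deltaNp63, which is the background for the counts that follow. With TAp63 in AsPC-1, 0 of 24 NF-kB genes and 0 of 19 input genes passed. With deltaNp63, 2 of the 24 NF-kB genes fell, a share near that background: TNIP1, an inhibitor of the pathway, from 182 ± 15.1 to 117 ± 5.57 TPM (-0.63, limma adjusted p 0.0259), and BCL3, an atypical IkB protein, from 128 ± 6.61 to 89.6 ± 17.6 TPM (SD, n = 2; -0.52, limma adjusted p 0.0424). Of the 19 input genes 3 fell with deltaNp63: the double-stranded RNA sensor TLR3 (-0.998, limma adjusted p 0.0295), the TNF receptor TNFRSF1B (-0.90, limma adjusted p 0.0207) and the cytokine IL1B (-0.53, limma adjusted p 0.0396). The mRNA-decay factor ZFP36L2 fell with both constructs, from 38.5 ± 0.233 to 25.8 ± 1.51 and 25.7 ± 2.26 TPM (SD, n = 2; limma adjusted p 0.0331 and 0.0166), as the 1 gene of 11 tested in its list, which with deltaNp63 is also near the background. No gene rose in any of these lists in AsPC-1. In PANC-1 0 passed in either direction with either construct, where 0.00677% of all genes did with TAp63 and 0.0406% with deltaNp63. After median centring TNIP1, BCL3, TLR3, IL1B and ZFP36L2 no longer passed, with limma adjusted p from 0.0543 to 0.154. Single libraries also decided these calls: TNIP1, BCL3, TLR3, TNFRSF1B and IL1B did not pass without either mock replicate or without replicate 1 of deltaNp63, nor did ZFP36L2 without either mock replicate or, for TAp63, without either TAp63 replicate (limma adjusted p from 0.052 to 0.247).

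**Figure D4:**
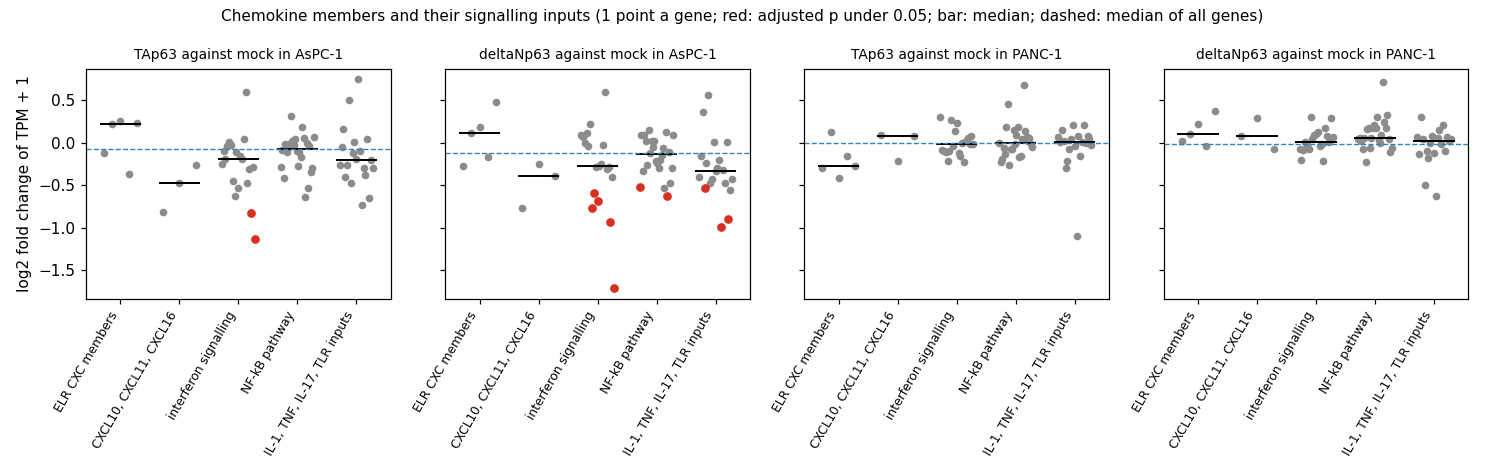
Log2 fold changes of TPM + 1 against mock for the neutrophil-attracting members, the T-cell-attracting members and 3 lists of their signalling genes, where each point is 1 gene, bars are list medians and the dashed line is the median of all genes. Red points, genes with a limma adjusted p under 0.05, appear in the AsPC-1 panels only, 2 with TAp63 and 10 with deltaNp63, all below 0 and none of them a chemokine.

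Other chemokines and the receptors were mostly below 1 TPM. Of 27 further chemokines 3 passed the filter on low values, and of 23 receptors 4 did. In every construct comparison 0 of these passed by limma, where from 0.00677% to 7.14% of all genes did. The receptors of these members, CXCR1, CXCR2, CXCR3, CXCR6, CCR2 and CCR6, were under 1 TPM on average in every group. Between the lines, some genes named after their values were seen also differed widely: the fractalkine gene CX3CL1 averaged 0.336 ± 0.0864 TPM in mock AsPC-1 against 96.0 ± 4.97 TPM in mock PANC-1. In the other direction, the NF-kB inducer IL1A averaged 57.0 ± 9.15 TPM in mock AsPC-1 against 0.107 ± 0.06 TPM in mock PANC-1 (SD, n = 2), and the scavenging receptor ACKR3 at 23.7 ± 2.29 and 0.0351 ± 0.0496 TPM. IL1B was at 8.66 ± 0.754 TPM in AsPC-1 mock and listed at 0 in both PANC-1 mock libraries.

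The ratio of CXCL2 to CXCL3 was steady in AsPC-1. It ran from 2.13 to 2.34 in the 6 AsPC-1 libraries, and from 0.465 to 3.35 in PANC-1, where both genes are near 1 TPM. CXCL8 over CXCL1 ran from 2.03 to 5.00 in AsPC-1, the highest in replicate 1 of deltaNp63, and from 1.00 to 1.47 in PANC-1. The summed TPM of the 5 neutrophil-attracting genes in AsPC-1 was 164 ± 3.42 with mock, 184 ± 8.29 with TAp63 and 185 ± 3.07 with deltaNp63 (SD, n = 2). That of CXCL10, CXCL11 and CXCL16 was 66.8 ± 3.16, 53.9 ± 1.95 and 49.9 ± 3.83, nearly all of it CXCL16.

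Transcripts of 4 members could be told apart. CCL20 was divided between ENST00000358813, with median shares of 56.5% (AsPC-1) and 56.9% (PANC-1), and ENST00000409189, with 43.1% and 39.6%. CXCL16 had 4 transcripts, led by ENST00000293778 at 52.1% and 47.8%. For CXCL2 the retained-intron transcript ENST00000510048 held 11.3% and 10.6%, and for CXCL8 the coding transcript ENST00000307407 held 99.7% and 100%. The median shares thus lay near each other between lines whose total levels differ widely, but single PANC-1 libraries spread further for CXCL16 and CCL20. ENST00000293778 ran from 24.4% to 56.2% in PANC-1, against 44.1% to 55.9% in AsPC-1. ENST00000409189 ran from 24.85% to 50.5%, against 41.0% to 45.9%. No transcript of a member passed against mock. How the unstated quantifier divided shared sequence bears on these shares.

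For the most abundant neutrophil- and T-cell-attracting genes, the genes with the most similar pattern within the lines were looked up over the 12 libraries, after subtraction of each line's mean. For CXCL2 they were ENSG00000232748, PDCD4-AS1 and RABIF, with Pearson's r of 0.834, 0.825 and 0.818. For CXCL16 they were PIK3C2B, MKRN1 and CPT2, with 0.928, 0.925 and 0.923. These are the highest of 13449 genes compared, so values of this size describe these libraries only. In PANC-1, CXCL2 was at 0.688 to 1.35 TPM, with a replicate SD on the log2 scale of 0.233, against 0.104 in AsPC-1. Its correlations thus rest in part on values near 1 TPM.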

How the data were processed

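RNA was measured in 12 libraries, 2 for each of the 6 groups of cell line and construct. Per the labels' protocols, column-purified RNA was made into stranded mRNA libraries. The authors deposited TPM values, relative transcript abundances, for 153329 Ensembl transcripts, and each column sums to 1000000. The quantifier, genome build and annotation are not given in the sources used here. TPM keeps no read depth, so precision rests on the replicates alone. The labels call them biological replicates without naming separate cultures, so p-values measure the spread between these samples.

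Transcripts were matched to GENCODE v44 symbols (139819, 91.2%; the other 13510 were left out) and summed to 39099 genes. The 14767 genes that reached 1 TPM in 2 or more libraries were fitted as log2(TPM + 1), a pseudocount of 1, with limma 3.58.1 (trend; R 4.3.3, data.table release 1.17.8), as 6 group means with 6 residual degrees of freedom. The 9 contrasts were adjusted by Benjamini-Hochberg over all genes, two-sided, with a threshold of 0.05. CCL2, listed at 0 throughout AsPC-1, was given no test there. The fit was tested on simulated data. The deposited table held TPM and no counts, so no count test was run.

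The members and gene lists were chosen with earlier results of these data known. Named besides the members and TP63 were at most 3 genes per list and construct comparison, those with the largest changes among genes past the threshold with a mean of 1 TPM or more and groups that do not overlap; exceptions are marked. The likeness search named 3 genes each for 2 members. Alternatives were limma without trend, quantile normalization, median centring, no filter, a stricter filter of 5 TPM on the mean (10221 genes), another pseudocount (0.1), a replicate block, fewer groups in the fit, transcript rows and leaving out each replicate. CCL3, CCL4, CCL5, CCL15 and PECAM1 were not analysed here. A further result is not reported here.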

Additional observations from a re-analysis of the deposited data

Results flagged for a closer look

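With 2 samples a group, no sample could be tested as lying far from its group. Only the members, TP63 and the list genes named above were looked at here. Those list genes were named for passing against mock in AsPC-1, in libraries that also enter the interaction. In 4 results the effect of deltaNp63 differed between the lines by the interaction test (PANC-1 minus AsPC-1, log2 scale, limma). Over all genes, 0.582% passed that test. None of the 4 is a chemokine. TP63 itself differed by 2.61 (limma adjusted p 0.01), being raised more in PANC-1; on transcript rows it was 2.08 (limma adjusted p 0.294), and the call was also lost without replicate 1 of the AsPC-1 mock, either PANC-1 mock replicate or replicate 2 of PANC-1 deltaNp63 (limma adjusted p 0.0512 to 0.0689). USP18 differed by 1.78 (limma adjusted p 0.00246), STAT2 by 0.94 (limma adjusted p 0.0141) and IRF1 by 1.07 (limma adjusted p 0.017). Each fell in AsPC-1, and in PANC-1 none of them passed against mock. The USP18 difference passed under every alternative run, whereas over the alternatives that ended the call the limma adjusted p was 0.0526 to 0.2004 for STAT2 and 0.052 to 0.145 for IRF1. The overexpressed RNA was thus more abundant in the line whose interferon genes moved less, and whether that had a part in these differences was not tested.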

How the results depend on the processing

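The count of chemokine members passing was 0 in each construct comparison and cell-line difference under all alternatives run, except deltaNp63 against mock in AsPC-1. There it was 1 with the replicate block (CXCL16, limma adjusted p 0.0342; the block changed no other count of members) and ranged from 0 to 1 when single replicates were left out, with CXCL8 passing without replicate 2 of deltaNp63; the cause was not tested. Between the mock lines, 7 to 9 members passed over the alternatives, against 9: CXCL11 was lost in 7 of them and not tested with a mean of at least 5 TPM, CXCL1 was lost in 2, while CXCL10 passed under quantile normalization (-0.50, limma adjusted p 0.0498). No called value of a member changed sign.

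Whether same-numbered replicates share more than a number, such as a batch, is not given in the labels. Their deviations from the group means correlated at -0.094 to 0.293 in AsPC-1 and -0.043 to 0.112 in PANC-1. Counts over all genes moved more than the member counts. For deltaNp63 in AsPC-1, 1055 genes passed, 0 when only the compared groups were fitted and 4057 without replicate 2 of deltaNp63. For TAp63 in AsPC-1, 94 passed, between 0 and 115 over the alternatives. In PANC-1 the counts reached 49 with TAp63 and 42 with deltaNp63 without the low-value filter, against 1 and 6. The depth is unknown, so members near 1 TPM, CXCL10 and CXCL11 in both lines and CXCL2, CXCL3 and CXCL5 in PANC-1, have an unknown counting error.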
